A study of Mus musculus with 20 samples.

Results

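Microglia of mouse brains were compared between Cxcr4 conditional knockout (KO) and control animals after a stroke. The comparison used 6 of the 20 libraries of the series, namely all TdT-negative microglia of the Cxcr4CreER line, with 3 libraries from KO and 3 from control mice. A gene was tested if it reached 10 in 3 or more of that line's 12 libraries, which 12432 of 16140 genes did. Control microglia came from animals labelled Cxcr4CreER control and KO microglia from animals labelled Cxcr4CreER KO, both taken from the brain at day 3 of a permanent photothrombosis. In this stroke model, illumination of the brain after injection of a photosensitive dye occludes blood vessels. Both genotypes carry the Cxcr4CreER allele, in which expression of a drug-inducible Cre recombinase follows Cxcr4. Each microglia library has an animal number of its own, so the 3 libraries of a group are separate mice. The same line also gave 3 control and 3 KO libraries of TdT-positive monocytes, which serve below as a reference and share the estimate of the spread. P-values of the main fit thus rest on the spread between libraries within all 4 groups, monocytes included, and some mice gave both populations. A fit of the 6 microglia libraries alone is given beside it. The labels do not spell out TdT, and give no tamoxifen schedule, age or sex. Since the microglia are the TdT-negative cells, a KO library holds microglia of a KO animal, and these data do not show whether the cells themselves lost Cxcr4.

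Microglia are the resident macrophages of the brain parenchyma. They arise from yolk sac precursors, renew themselves locally and are recognised by genes such as P2ry12, Tmem119 and Sall1. After an ischaemic injury they lose part of this homeostatic programme and switch on cytokine, interferon and lipid-handling genes, while monocytes enter from the blood. Cxcr4 is a G protein-coupled receptor for the chemokine Cxcl12. It retains haematopoietic cells in the bone marrow and is carried by infiltrating monocytes, whereas adult microglia have little of it.

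The 6 libraries held 9.73 to 27.2 M reads and detected 11930 to 13316 genes. Values are the authors' normalized counts, in which each library was scaled by its own factor, and 1 read was worth 0.703 to 1.87 normalized counts. Across genes, libraries correlated (Pearson, log2 scale) at 0.72 to 0.76 within the control group, 0.77 to 0.79 within the KO group and 0.72 to 0.81 between the groups, so libraries of different genotype were as alike as libraries of the same one. Control microglia 1 stood apart on the first principal component, which held 31.9% of the variance. Detection of single genes also differed between libraries of the same group. Between 435 and 809 tested genes were at 0 in 1 library and at 50 or more in another of the same group, against 345 to 816 for pairs of different genotype. In all, 24.7% of the tested genes had no read in at least 1 microglia library. In bulk libraries, fewer cells of a type and less RNA per cell cannot be told apart.

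The targeted gene was almost absent from microglia of either genotype. Cxcr4 had 0, 8 and 0 reads in the 3 control microglia libraries and 1, 0 and 0 reads in the KO libraries. In monocytes of the same line it stood at 1183, 1332 and 1166 normalized counts in control and at 784, 1010 and 536 in KO animals. The groups of microglia overlapped, and a two-sided exact permutation test gave p = 1. The smallest p that 3 against 3 libraries without ties allow is 0.1. Most of these libraries were tied at 0, so that p could not be reached and the test cannot decide. All 8 control reads came from control microglia 2, and without that library the log2 difference turned from -0.74 to 0.31. A change of Cxcr4 in microglia was therefore not detectable at this depth.

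All 6 libraries carried the defining markers of microglia. P2ry12, a purinergic receptor that guides microglial processes to released nucleotides, stood at 26681, 21777 and 37799 in control and at 37415, 27188 and 34466 in KO microglia, against group means of 1419 and 1509 in control and KO monocytes. Tmem119, a membrane protein used as a microglial marker, had 4407, 6114 and 5525 in control and 5478, 3349 and 4798 in KO libraries, against means of 579 and 258 in the monocytes. Sall1, a transcription factor that maintains microglial identity, had 2519, 1809 and 2105 in control and 2033, 2171 and 2437 in KO libraries, against 90.2 and 124. For all 3 markers the KO and control values overlapped, and every microglia library was above both monocyte means.

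The homeostatic programme as a whole showed no gene that passed the test between KO and control microglia. All 28 listed homeostatic genes were tested and none was called, which means a limma p under 0.05 after Benjamini-Hochberg adjustment across the 12432 genes. Over all genes, 0.0322% were called in either direction. The log2 fold, KO minus control on the log2(value + 1) scale, was positive for 20 of the 28 genes and negative for 8, with a median of 0.14 against 0.05 for all tested genes. In the fit of the 6 microglia libraries alone, the 95% interval stayed within a 2-fold change either way for 15 of the 28 genes, against 9.35% of all genes. In the fit of all 12 libraries this held for 7 of the 28 genes, against 6.31% of all genes. The list is abundant, with a median level of 5728, and such intervals are more frequent at high levels, as given below. Among microglia alone, P2ry12 differed by 0.22 (interval -0.42 to 0.87), Tmem119 by -0.25 (-0.87 to 0.36) and Sall1 by 0.06 (-0.46 to 0.57) on the log2 scale. Cx3cr1, the receptor for the neuronal chemokine fractalkine, differed by 0.05 (-0.42 to 0.51), with 10654, 13502 and 10764 in control and 13198, 10284 and 12604 in KO libraries. Siglech, a sialic acid-binding receptor, differed by 0.08 (-0.44 to 0.59).

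The shared fit of all 12 libraries gave the same folds with wider errors for genes that are sparse in monocytes. Sall1 is the clearest case, with an SE of 1.54 in the shared fit and 0.21 among microglia alone. Of the 28 genes, P2ry13 and Cd33 were the only ones whose KO and control libraries did not overlap. P2ry13, an ADP receptor, had 3708, 4373 and 5935 in control and 8012, 6053 and 6703 in KO microglia, a log2 fold of 0.59 (SE 0.40, limma adjusted p = 1). Cd33, an inhibitory sialic acid-binding receptor, had 2436, 3489 and 3255 in control and 5014, 3994 and 5164 in KO microglia, a log2 fold of 0.63 (SE 0.46, limma adjusted p = 1). Both were higher in every KO library, and neither passed the test. Over all tested genes, 5.24% were higher and 4.22% lower in KO microglia without overlap, so 2 of 28 is close to that background.

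**Figure D1:**
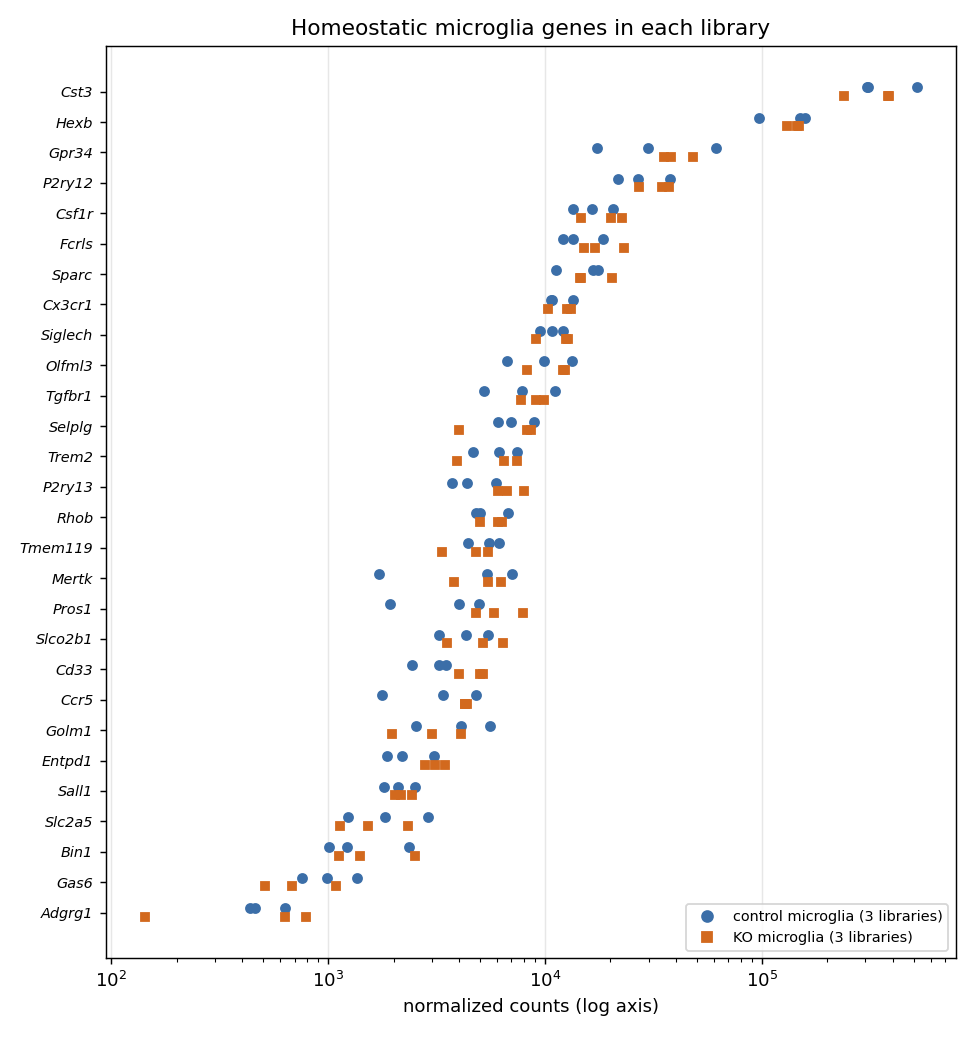
Normalized counts (log axis) of the 28 homeostatic genes in each of the 3 control (circles) and 3 KO (squares) microglia libraries, 1 row per gene, ordered by mean. Points of the groups are interleaved in all rows except P2ry13 and Cd33, where the KO points lie higher.

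Across the 12432 genes, 4 were called: 1 higher in KO microglia (0.00804% of the tested genes) and 3 lower (0.0241%). All 4 were low in microglia, with a highest library at 365 normalized counts, and at or near 0 in every monocyte library. Ermn, which encodes a cytoskeletal protein of myelinating oligodendrocytes, rose in KO microglia: it was at 0 in all 3 control libraries and at 295, 124 and 365 in the KO libraries (log2 fold 7.89, SE 0.92, limma adjusted p = 0.0253). Against the limit of 3 reads over the control group, its mean was at least 314-fold higher. Aldh1l1, a folate enzyme used as an astrocyte marker, fell: it had 285, 73.8 and 214 in control libraries and 0 in all 3 KO libraries (log2 fold -7.38, SE 0.97, limma adjusted p = 0.0284), at least 178-fold lower.

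Tmem177, a mitochondrial protein involved in the assembly of cytochrome c oxidase, fell from 204, 160 and 102 in control libraries to 0, 0 and 0.862 in KO libraries (log2 fold -6.93, SE 0.90, limma adjusted p = 0.0284). The KO value is a single read, against 571 reads in the controls, a ratio of 442 with a counting interval of 79.0 to 17477 (exact, 95%, counting error only). Trip13, an ATPase of the spindle checkpoint and meiotic recombination, fell from 54.8, 95.5 and 103 to 0 in all 3 KO libraries (log2 fold -6.37, SE 0.86, limma adjusted p = 0.0284), at least 78.7-fold lower. In each of the 4 genes the groups were separate, with the lower group at 0 or at 1 read. Each reached 10 normalized counts only in the 3 libraries of its higher group, and so passed the filter through that group alone. The separation is thus no evidence apart from the call.

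These calls rest on the fit that shares its spread with the monocytes, where all 4 genes are at or near 0. Among the 6 microglia libraries alone none of the 4 was called (limma adjusted p = 0.316 for each), nor was any other gene, while 558 genes had an unadjusted p under 0.05. edgeR's quasi-likelihood test on the recovered reads called no gene, with 372 at an unadjusted p under 0.05. Without control microglia 1, control microglia 3 or KO microglia 3, or without any single monocyte library other than control monocytes 2, no gene was called. Without KO microglia 1, Clec4d alone was called, and without KO microglia 2, Ermn alone. Without control microglia 2, 8 genes were called, 3 of them among the 4, and without control monocytes 2, 6 genes, all 4 included. Genes at 0 in all libraries of 1 group and at 50 or more in every library of the other numbered 3 in each direction. Of the other oligodendrocyte markers, Mag, an adhesion molecule of the myelin sheath, had 65.4, 74.8 and 314 in control and 197, 217 and 117 in KO libraries, and Mbp also overlapped. Of the other astrocyte markers, Slc1a3, a glutamate transporter, was at 1048, 1457 and 1672 in control and at 2144, 2596 and 1858 in KO libraries (limma adjusted p = 1), higher in every KO library, which is opposite in direction to Aldh1l1.

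**Figure D2:**
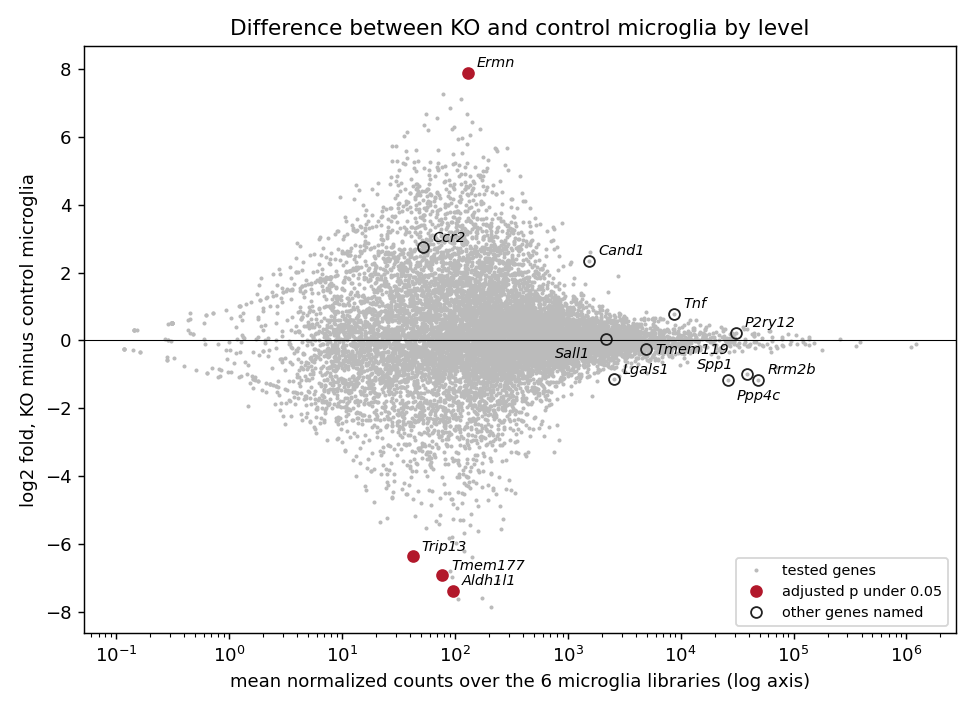
Log2 fold (KO minus control microglia, vertical) against the mean over the 6 microglia libraries (log axis) for each tested gene with a read in microglia. Filled points are the 4 called genes, at means of about the level where the cloud is widest; open circles mark other genes named in the text, and the cloud narrows as the level rises.

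How small a difference could be seen depended on the level of the gene. The median SE of the log2 fold was 1.74 for genes with a mean of 10 to 100 normalized counts over the microglia libraries, 1.19 at 100 to 1000, 0.43 at 1000 to 10000 and 0.28 at 10000 or more. The 95% interval lay within a 2-fold change for 0 of 3502, 17 of 5871, 589 of 2057 and 178 of 240 genes in these classes, and for 6.31% of all tested genes. For abundant genes these libraries thus bound the difference, and for most others they do not. Over all genes, 439 had an unadjusted p under 0.05.

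Genes without overlap, the 4 called ones included, were ranked by p, and the ranking held 2 kinds of gene. Of the 15 genes with the smallest p and a higher KO level, 12 had a control library at 0, and of the 15 lower ones 8 had a KO library at 0. Such genes go from 0 in some libraries to clear counts in others, and their fitted fold depends on the added 1. Examples are Dus4l, a tRNA dihydrouridine synthase, with 131, 160 and 349 in control and 0 in all KO libraries, and Zfp558, a zinc finger gene, with 0 in all control and 88.4, 44.9 and 34.5 in KO libraries. Neither was called by limma (adjusted p = 0.504 for each), and DESeq2 gave an adjusted p of 0.00267 for Dus4l and 0.977 for Zfp558. Genes of the rankings that were measured in every library are described next.

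Among the higher genes with reads in all 6 libraries, Cand1, which exchanges the substrate receptors of cullin ubiquitin ligases, had 757, 387 and 402 in control and 1715, 3038 and 3001 in KO microglia (log2 fold 2.35, SE 0.60, limma adjusted p = 0.832). Its lowest KO library was well above the highest control. Nt5c3, a pyrimidine nucleotidase that is also interferon-inducible, had 54.8, 60.1 and 259 in control and 355, 781 and 445 in KO microglia (log2 fold 2.38, SE 0.60, limma adjusted p = 0.832). Monocytes had 6350 and 4160 of Nt5c3, on average, in control and KO animals. DESeq2 on the recovered reads called Cand1 (adjusted p = 0.0188), and neither gene was called by limma.

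Ccr2, the receptor by which monocytes follow Ccl2 out of the bone marrow and into injured tissue, was higher in every KO library. The ranking that Ccr2 comes from required this. Ccr2 had 22.5, 13.8 and 5.98 in control and 72.0, 120 and 81.0 in KO microglia (log2 fold 2.74, SE 0.49, limma adjusted p = 0.243). The call depended on the tool, with an adjusted p of 1.13e-07 in DESeq2 and 0.452 in edgeR. Monocytes had 14015 and 12956, on average, in control and KO animals. The monocyte list as a whole was less uniform. Of its 24 tested markers, Ccr2 included, 15 had a positive and 9 a negative log2 fold, with a median of 0.29, and their summed level was 25425 to 34784 in control and 24089 to 26445 in KO microglia, against 441419 to 566056 in the monocyte libraries. Ly6c2, the antigen that defines classical monocytes, was at 393, 0 and 1.71 in control and at 0 in all 3 KO microglia libraries, and Chil3 and Vcan were also at 0 in all 3 KO libraries. Ly6c2, Chil3 and Vcan are picked members of a list in which 15 of 24 folds were positive. Its log2 folds ran from -3.78 to 4.55.

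Among the lower genes measured in every library, Ppp4c and Rrm2b were abundant and had smaller differences. Ppp4c, the catalytic subunit of protein phosphatase 4, had 27445, 32797 and 47786 in control and 12687, 21651 and 14041 in KO microglia (log2 fold -1.16, SE 0.24, limma adjusted p = 0.487). Rrm2b, the p53-inducible subunit of ribonucleotide reductase, had 47438, 59799 and 95211 in control and 25226, 40117 and 24164 in KO microglia (log2 fold -1.16, SE 0.25, limma adjusted p = 0.504). In both genes the library order was alike, with control microglia 3 highest and KO microglia 2 the highest of the KO libraries. Both were also lower in KO than in control monocytes, with means of 20942 against 29446 for Ppp4c and 36022 against 51127 for Rrm2b. These monocyte differences were not called (log2 fold -0.49 and -0.51, limma adjusted p = 0.83 and 0.843).

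Lgals1, a galectin that is high in infiltrating myeloid cells, had 2457, 3892 and 4332 in control and 1621, 1604 and 1452 in KO microglia (log2 fold -1.15, SE 0.26, limma adjusted p = 0.504). Ms4a6c, a tetraspanning membrane protein of monocytes and macrophages, had 6500, 5534 and 7770 in control and 2848, 4436 and 3051 in KO microglia (log2 fold -0.95, SE 0.21, limma adjusted p = 0.508). Both are several times higher in monocytes, with means of 18033 and 21957 for Lgals1 and of 39326 and 44646 for Ms4a6c in control and KO animals. All 4 genes stayed under the threshold in limma and passed it in DESeq2, at adjusted p = 0.00673 for Ppp4c, 0.0159 for Rrm2b, 0.0016 for Lgals1 and 0.0137 for Ms4a6c.

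Pf4, a chemokine of platelets that is also found in border-associated macrophages, had 830, 591 and 484 in control and 255, 202 and 72.4 in KO microglia (log2 fold -1.99, SE 0.57, limma adjusted p = 0.913). It was lower in every KO library, and monocytes had means of 6856 and 5250 in control and KO animals. Gp9, another listed platelet marker, went the other way, with 0, 14.8 and 0 in control and 93.0, 35.6 and 178 in KO microglia (log2 fold 5.08, SE 1.23, limma adjusted p = 0.739). Of the 11 tested markers of border-associated macrophages, 3 had a positive and 8 a negative fold, with a median of -0.56, which was -1.63 without control microglia 3 and -0.04 without control microglia 1. The sum of the border-associated markers was 4862 to 6870 in control and 4687 to 5408 in KO libraries, against 50507 to 67250 in the monocyte libraries. Mrc1, the mannose receptor of these macrophages, overlapped, with 1512, 695 and 706 against 564, 414 and 1330. Kdr, the main endothelial receptor for Vegfa, had 54.8, 36.4 and 75.2 in control and 1.82, 1.87 and 0.862 in KO microglia (log2 fold -4.45, SE 0.98, limma adjusted p = 0.504). Monocytes had more Kdr, with means of 192 and 243 in control and KO animals. DESeq2 gave it an adjusted p of 0.00019, while Flt1 and Pecam1 of the same endothelial list overlapped. Gpr108, which encodes a membrane protein of the Golgi, had 916, 416 and 601 in control and 72.0, 33.7 and 6.89 in KO microglia (log2 fold -4.50, SE 1.16, adjusted p = 0.832 by limma and 0.0134 by DESeq2). Clec4d, a C-type lectin receptor of myeloid cells, had 288, 249 and 343 in control and 156, 9.36 and 0.862 in KO microglia (log2 fold -4.33, SE 1.15, limma adjusted p = 0.85), against 22383 and 20963, on average, in control and KO monocytes. Gpr108 and Clec4d were lower in every KO library, which the ranking they come from required.

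**Figure D3:**
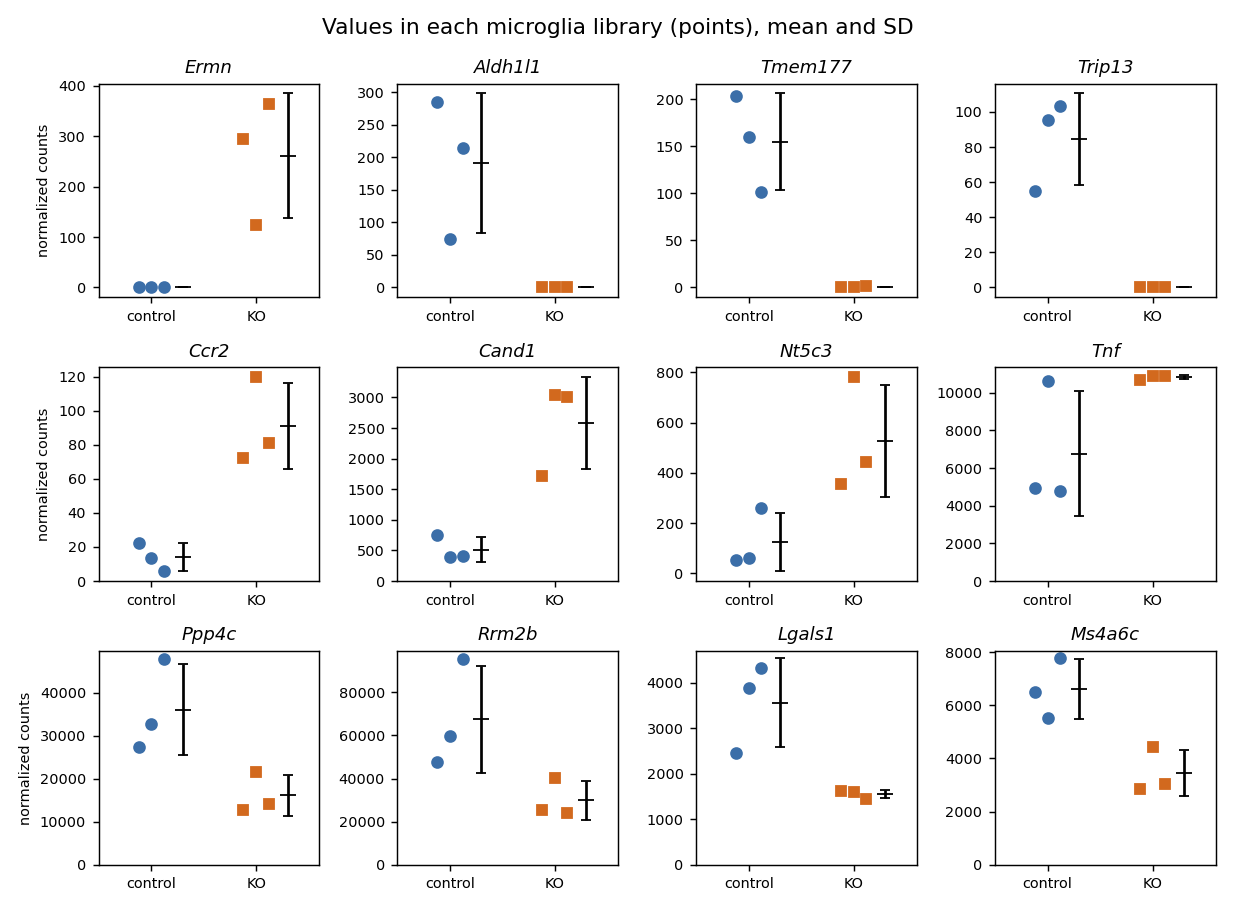
Normalized counts (linear axis) in the 3 control (circles) and 3 KO (squares) microglia libraries for the 4 called genes (top row) and 8 genes that were not called, with the mean and SD of each group beside the points. Apart from Tnf, the genes come from rankings that required no overlap, so the separation in their panels was fixed by that choice. The groups of Tnf do not overlap either, and its highest control library nearly reaches the KO libraries.

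Stroke-induced microglial programmes were next described by lists. Of the 21 genes of the disease-associated microglia signature, none was called and none was free of overlap. Of these, 15 had a positive and 6 a negative fold, with a median of 0.13, which was -0.19 without control microglia 1. Spp1, which encodes osteopontin, a secreted phosphoprotein of activated macrophages, had the smallest p of the list. It had 25779, 56096 and 78254 in control and 26031, 18851 and 28720 in KO microglia (log2 fold -1.002, SE 0.38, limma adjusted p = 1), and control microglia 1 lay among the KO values. Apoe, a lipid carrier, had 8187, 29521 and 9162 in control and 13980, 10997 and 7894 in KO microglia. Trem2, the lipid-sensing receptor upstream of this signature, differed by a log2 fold of -0.06 (SE 0.56), Lpl by 0.55 (SE 0.51) and Cst7 by 0.57 (SE 1.62). In the fit of microglia alone, the lysosomal genes had the largest share of intervals within a 2-fold change, 14 of 18. In the fit of all 12 libraries they had 13 of 18, and the mitochondrially encoded respiratory chain genes 11 of 13. The lysosomal list is abundant, with a median level of 9257, where such intervals are more frequent. Its median log2 fold was 0.10, and 0.32 without control microglia 2.

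Interferon response genes were mostly lower in KO microglia, without a call. Of 22 genes, 20 had a negative and 2 a positive log2 fold, with a median of -0.26 against 0.05 for all genes. Rsad2, an antiviral radical SAM enzyme, was the single member free of overlap, beside 4.22% of all genes that were lower without overlap, with 2919, 1541 and 1402 in control and 675, 1301 and 1224 in KO microglia (log2 fold -0.85, SE 0.52, limma adjusted p = 1). Oasl2, an oligoadenylate synthetase-like gene, had 1761, 1788 and 2831 in control and 684, 1872 and 1922 in KO microglia (-0.62, SE 0.46). The summed level of the list was 104146, 58139 and 120444 in control and 51808, 99783 and 87795 in KO microglia. Control microglia 2 and KO microglia 1 were thus the 2 low libraries, and the groups overlapped. All members were measured in the same 6 libraries, so 20 of 22 is no count of independent genes. The median was -0.64 without control microglia 2 and -0.03 without control microglia 3. Cxcl10, an interferon-induced chemokine, was one of the 2 with a positive fold, at 0.21 (SE 0.54).

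Cytokine and chemokine genes gave values in both directions. Of 22 genes, 16 had a positive and 6 a negative fold, with a median of 0.27 and no call. The median was 0.12 without control microglia 3 and 0.47 without control microglia 1. Of the 22, 3 were higher in every KO library, beside 5.24% of all genes that were higher without overlap. Il1rn, the soluble antagonist of the interleukin-1 receptor, had 81.6, 134 and 281 in control and 487, 335 and 333 in KO microglia (log2 fold 1.38, SE 0.49, limma adjusted p = 1). Tnf had 4932, 10605 and 4766 in control and 10685, 10907 and 10913 in KO microglia (0.78, SE 0.43), so that control microglia 2 nearly reached the KO level. Cxcl16, a membrane-bound chemokine, had 4212, 3122 and 2969 in control and 4317, 4442 and 4704 in KO microglia (0.40, SE 0.22).

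The abundant cytokines Il1b and Il1a and chemokines Ccl3 and Ccl4 overlapped. Il1b had 9803, 12338 and 15618 in control and 13304, 14003 and 8682 in KO microglia, a log2 fold of -0.07 (interval -0.74 to 0.59 among microglia alone). Ccl4 differed by 0.17 (interval -0.36 to 0.70) and Ccl3 by 0.10 (-0.54 to 0.74) in that fit. Ccl12, a monocyte-attracting chemokine, had 75939, 51551 and 142701 in control and 31981, 57807 and 58409 in KO microglia (-0.79, SE 0.38, limma adjusted p = 1), and Ccl2, the main ligand of Ccr2, 26578, 17189 and 31910 against 12721, 24390 and 16901 (-0.49, SE 0.43). For both chemokines control microglia 2 lay within the range of the KO libraries.

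The Cxcl12-Cxcr4 pathway in microglia was described by the ligands and receptors that share it and by its signalling parts. Of 20 listed genes, 19 were tested, 9 with a positive and 10 with a negative fold, with a median of -0.02 and no call; Cxcl12 had no row. Mif, a cytokine that also binds Cxcr4, was the single member free of overlap (4.22% of all genes were lower without overlap), with 2318, 2298 and 2711 in control and 1852, 1960 and 1789 in KO microglia (log2 fold -0.38, SE 0.28, limma adjusted p = 1). Cd74, the Mif receptor and invariant chain, had 1832, 1551 and 1887 in control and 1674, 3525 and 2717 in KO microglia (0.53, SE 0.33). Ackr3, the scavenging receptor for Cxcl12, was sparse, with 1.41, 212 and 0.854 in control and 95.7, 0 and 7.76 in KO microglia. Among the G protein signalling parts, Rac1 differed by -0.10 (SE 0.21), Gnai2 by -0.07 (SE 0.35) and Rgs10 by -0.21 (SE 0.28).

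Antigen presentation genes gave no call, with MHC class II folds positive and MHC class I folds in both directions. All 10 MHC class II genes had a positive fold, with a median of 0.74 (0.55 to 1.36 over the alternatives) and a median SE of 1.51, and none was free of overlap. They were measured in the same 6 libraries, so 10 of 10 is no count of independent genes. Their summed level was 3421, 5048 and 5990 in control and 5363, 7566 and 7552 in KO microglia, which overlap, against 146266 to 305461 in monocytes. Cd74 and H2-Aa were at a low share of their monocyte level, with means of 1757 and 97.0 in control microglia against 93341 and 19160 in control monocytes. H2-Oa was not, with 239 against 70.0. The part of other cells in the Ccr2 and MHC class II values was not tested. Of 14 MHC class I genes, 8 had a positive and 6 a negative fold, with a median of 0.19, and H2-D1 was higher in every KO library at 12934, 18903 and 13180 against 12434, 12427 and 9553 (0.38, SE 0.31). It was the single class I member without overlap, beside 5.24% of all genes that were higher without overlap.

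A few members of the purinergic, TGF-beta, growth factor and hypoxia lists separated the groups, without a call. Higher without overlap were 2 of 10 purinergic, 1 of 13 TGF-beta, 1 of 13 growth factor and 2 of 22 glycolysis and hypoxia genes. Over all tested genes this share was 5.24%. Counts of 1 or 2 genes are too few to tell a list from that share, and this was not tested. P2rx7, the ATP-gated channel that triggers inflammasome activation, had 273, 415 and 598 in control and 634, 840 and 936 in KO microglia (log2 fold 0.96, SE 0.61, limma adjusted p = 1). Smad4, the common mediator of TGF-beta and BMP signals, had 77.3, 200 and 107 in control and 584, 279 and 463 in KO microglia (1.83, SE 0.69, limma adjusted p = 1). Vegfa, an angiogenic factor, was at 0 in all control libraries and at 32.8, 29.9 and 0.862 in KO microglia (limma adjusted p = 1), and Adm, a vasodilatory peptide gene, at 0, 0.985 and 0 in control and at 23.7, 43.1 and 17.2 in KO microglia (limma adjusted p = 0.504). Vegfa and Adm were separate between the groups but stayed under 50 normalized counts.

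Proliferation, metabolism and stress genes also gave no call. Of 27 cell cycle genes 18 had a positive and 9 a negative fold, with a median of 0.27. Of the 27, 3 were higher without overlap, beside 5.24% of all genes, and 0 lower. Aurkb, with the smallest p among the abundant enough members, had 0, 1.97 and 0 in control and 31.0, 89.8 and 442 in KO microglia (log2 fold 6.24, SE 2.43). Within the list Kif11, a mitotic kinesin, was at 36.6, 179 and 41.0 in control and 219, 445 and 427 in KO microglia (log2 fold 2.40, SE 1.01, limma adjusted p = 1), while Plk1, a mitotic kinase, was at 248, 74.8 and 8.54 against 11.9, 1.87 and 6.89 (-3.09, SE 1.25, limma adjusted p = 1). The mitochondrially encoded respiratory chain genes had a negative fold in 10 of 13, with a median of -0.10 and a range of -0.23 to 0.05. The medians were 0.21 for 22 glycolysis and hypoxia genes, 0.12 for 21 immediate early genes, -0.02 for 13 heat shock genes, 0.04 for 18 cholesterol genes and 0.05 for 12 complement genes. For 18 phagocytic receptors the median was -0.00, for 18 microglial transcription factors 0.01, for 12 chemokine receptors 0.02, for 13 TGF-beta genes 0.21, for 10 purinergic genes 0.19 and for 13 growth factors 0.73. The growth factor median was -0.09 without control microglia 3, and the mitochondrial one 0.21.

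**Figure D4:**
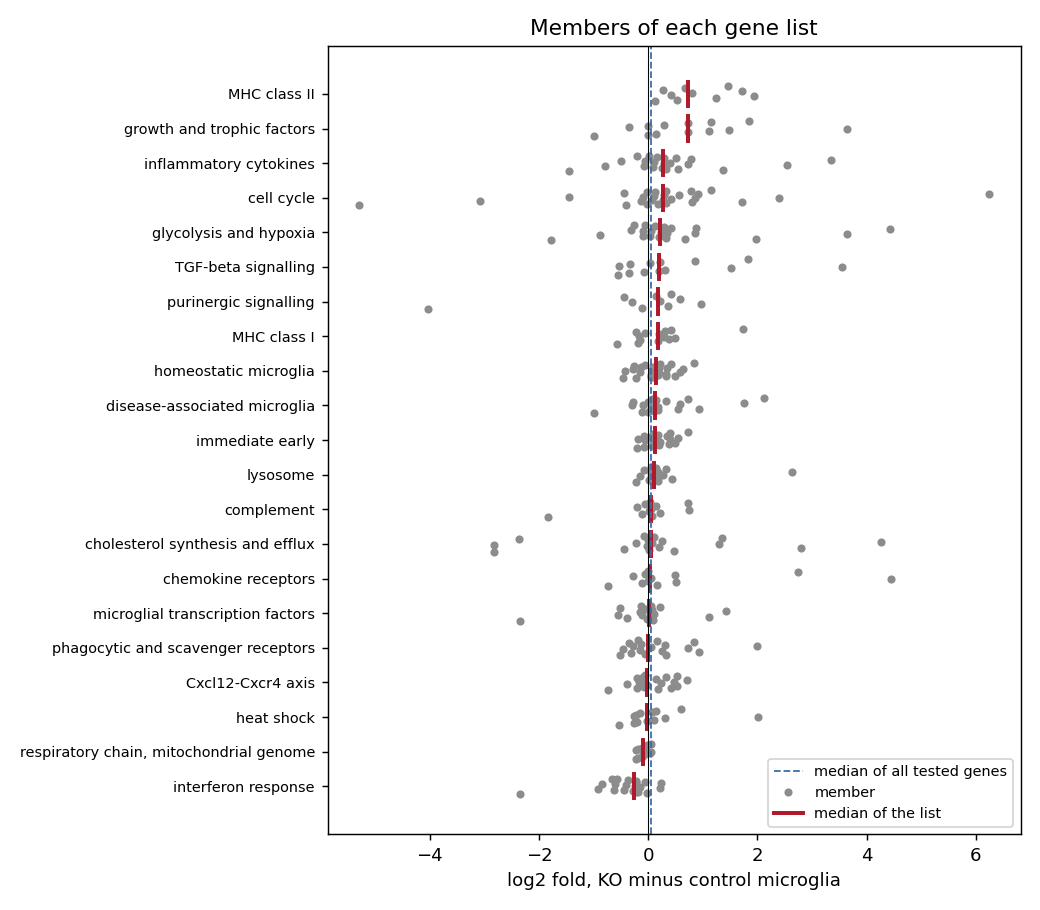
Log2 fold (KO minus control microglia) of each tested member (points) of the 21 programme lists, with the list median (vertical bar) and the median of all tested genes (dashed line, 0.05). Most medians lie near the dashed line; the interferon list lies lowest at -0.26 and the MHC class II list highest at 0.74.

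Sex-linked RNA was unevenly spread over the groups. Xist, the X-inactivation RNA of female cells, had 87.2, 4453 and 191 in control and 5726, 6014 and 109 in KO microglia. The sum of the Y-linked genes Ddx3y, Eif2s3y, Kdm5d and Uty was high where Xist was low, with 3230, 144 and 4618 in control and 178, 135 and 3847 in KO microglia. High Xist was thus found in 1 of 3 control and 2 of 3 KO libraries. With the Xist class as a term, no gene was called (limma), with 346 at an unadjusted p under 0.05, and the adjusted p was 0.084 for Ermn and 0.0889 for Aldh1l1, Tmem177 and Trip13. Where a microglia and a monocyte library shared an animal, both had the same class.

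Summed markers of other cells overlapped between the groups, except those of astrocytes. Neutrophil markers summed to 908 to 1925 in control and 1374 to 4195 in KO microglia, the highest being KO microglia 2, which alone had Camp (350) and Lcn2 (116), granule genes of maturing neutrophils. Ly6g, Mmp8, Mmp9, Ltf, Ngp, Elane and Ctsg were at 0 in all 6 libraries. Oligodendrocyte markers summed to 1739 to 2607 in control and 2027 to 2643 in KO libraries, and astrocyte markers to 1719 to 2609 and 2799 to 3003, the latter without overlap. Neuronal markers summed to 150 to 553 in control and 88.0 to 444 in KO libraries, endothelial and mural markers to 398 to 534 and 234 to 663, and those of red cells and platelets to 1187 to 2921 and 654 to 3871. Dendritic cell markers summed to 10576 to 12916 in control and 9889 to 13387 in KO libraries, above the 2508 to 6240 of the monocyte libraries. Siglech, a homeostatic gene above, alone had 10803, 9448 and 12134 in control and 12763, 9058 and 12532 in KO libraries, close to this sum. The dendritic sum is thus no measure of dendritic cells. T and NK cell markers summed to 302 to 734 and 289 to 457, and B cell markers to 530 to 1027 and 422 to 650. Most of the B cell sum was Cd79b, at 945, 1015 and 469 in control and 630, 451 and 404 in KO libraries. The part of these cells in the differences named above was not tested.

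**Figure D5:**
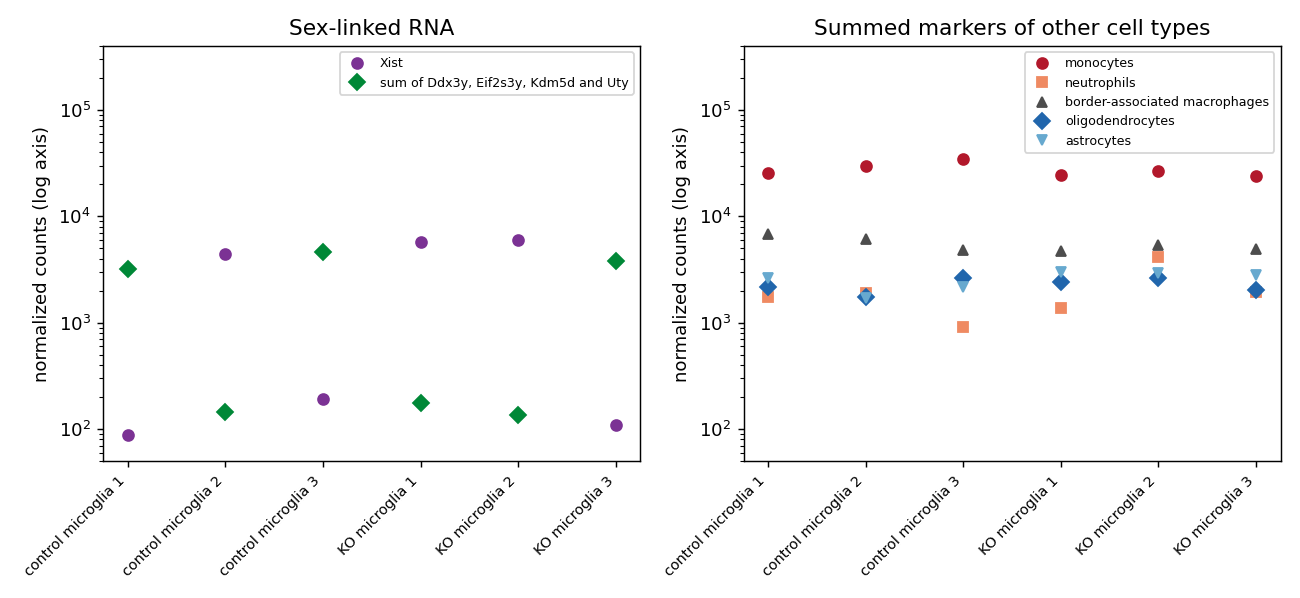
Left, Xist (circles) and the sum of 4 Y-linked genes (diamonds) in each of the 6 microglia libraries; right, summed markers of 5 other cell types in the same libraries (normalized counts, log axes). Xist is high in control microglia 2, KO microglia 1 and KO microglia 2, and the monocyte sums lie between 24089 and 34784 in all 6.

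Whether the microglial KO difference was another one than that of the monocytes was tested by the genotype-by-population term. No gene was called (0%), with 590 at an unadjusted p under 0.05 and a smallest adjusted p of 0.301 in limma. edgeR called none, with 730 at an unadjusted p under 0.05, and DESeq2 called 276. In monocytes 5 genes were called between KO and control: Clec4a4, Elane, Sh2d1b1, Tnfrsf18 and Upp1. The 4 genes called in microglia had folds of 0 to 0.41 in monocytes, where they are at or near 0, and this difference between the populations was not called for them (adjusted p of 0.301 for Ermn, Tmem177 and Aldh1l1 and 0.318 for Trip13).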

How the data were processed

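RNA was polyA-selected and made into SMART-Seq2 libraries, per the labels' protocols. The submitters' processing notes name bcl2fastq 2.20, kallisto and DESeq2; no source used here gives the kallisto version, genome build or annotation, and coordinates are left out. The deposited values are a signal, normalized counts, made by the authors. Every library's nonzero values (100%) were whole multiples of its smallest value to within 0.01, and whole reads were recovered for edgeR and DESeq2. No gene of the table has fewer than 10 reads over its libraries. Of the gene names, 656 with altered hyphens or digits were restored, and 24 that had turned into dates were kept as they are.

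Genes with 10 or more in at least 3 libraries were tested two-sided with limma 3.58.1 on log2(value + 1), moderated with an intensity trend, in R 4.3.3, with 4 groups in 1 fit and Benjamini-Hochberg adjustment over 12432 genes. KO and control microglia come from different animals and were not paired. Alternatives used a pseudocount of 10, other filters, microglia alone, animal as a random effect, other scalings, edgeR 4.0.16 and DESeq2 1.42.0, no trend and each library left out. The monocyte libraries left out, a microglial mean of 100 and the Xist class (above 1000) were added after the data were seen. A count of 0 was read against a limit of 3 reads over the group; the reads carry no molecular identifiers and are not independent molecules, so such limits and intervals cover counting error only.

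Named genes were Cxcr4, the 3 markers, the called genes, the 15 smallest p per direction with a mean of 50 or more and no overlap, and 2 per list (6 homeostatic), with predicted genes left out; rankings are given in part. Further list members, among them Cx3cr1, Siglech, Apoe, Il1b, Ccl2 and Adm, were chosen after their values were seen. Lists and members were chosen with earlier results of these data known. The libraries of the Cxcr4-GFP mice were not used here.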

Additional observations from a re-analysis of the deposited data

How the results depend on the processing

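The 4 calls held with a pseudocount of 10, without a filter, with the filter on microglia, with animal as a random effect and with both other scalings. Among the 6 microglia libraries alone, with edgeR, with the Xist class as a term, and with a microglial mean of 100 or more, 0 genes were called higher and 0 lower. Unadjusted p under 0.05 was found for 558, 372, 346 and 235 genes. The mean of 100 left 8168 genes and removed Aldh1l1, Tmem177 and Trip13 before the test. Of the 4 calls, that setting thus tested Ermn alone (limma adjusted p = 0.207). DESeq2 called 64 higher and 44 lower, 2 of them shared with the 4 calls; of its 108 calls, 74 had reads in 3 or fewer of the 6 microglia libraries and 50 had a log2 fold above 10 in size. Without the intensity trend 3 were called higher and 4 lower, and 136 intervals lay within a 2-fold change. Leaving out 1 library gave 0 to 6 higher and 0 to 4 lower calls, and 460 to 953 such intervals. For the genotype-by-population term, DESeq2 called 276 genes, limma without the trend 9, and leaving out 1 library 0 to 1.

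Ermn had a log2 fold of 7.89 among microglia alone and with a mean of 100 or more, 11.26 in edgeR and 7.997 with the Xist class, and 7.58 to 8.36 with 1 library left out. Aldh1l1 had -7.38 among microglia alone, -10.82 in edgeR and -7.05 with the Xist class, and -7.95 to -6.99 with 1 library left out. Tmem177 had -6.93 among microglia alone, -8.50 in edgeR, -8.57 in DESeq2 and -6.85 with the Xist class, and -7.23 to -6.71 with 1 library left out. Trip13 had -6.37 among microglia alone, -9.64 in edgeR, -8.66 in DESeq2 and -6.40 with the Xist class, and -6.65 to -6.20 with 1 library left out. No direction of these 4 changed. The groups of each gene did not overlap, so leaving out a library could not have reversed a direction. The cause of the lost calls was not tested.

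With 1 library left out, Cxcr4 ranged from -1.26 to 0.31, Axl from -0.035 to 1.44, COX2 from -0.46 to 0.026, CYTB from -0.53 to 0.18, Flt3 from -0.21 to 2.34, Ly6c1 from -1.13 to 2.53, Mitf from -0.25 to 2.62, Sall1 from -0.061 to 0.18 (-0.34 with the Xist class) and Vegfb from -0.0023 to 2.01; none of these was called in any setting. No paired analysis was possible because KO and control microglia come from different animals.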
